A study of Rattus norvegicus with 12 samples.

Results

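The spinal cord of immunocompetent Sprague-Dawley (SD) rats was followed from the acute phase, 1 week after contusion, to the chronic phase, 8 weeks after contusion. Genes entered the comparison when the authors' table marked them as tested in both phases and the SD level was at least 1 FPKM (fragments per kilobase of transcript, scaled to the size of the library) in both, which left 10991 of the 17423 genes listed. The RNA-seq series holds 12 adult female rats, with 3 in each of 4 groups: SD (Hsd:SD) and athymic nude (AN, Hsd:RH-rnu/rnu) rats at 1 and at 8 weeks. AN rats carry the rnu mutation and lack a normal thymus and T cells, whereas SD rats have both. Every rat received a moderate 200 kdyn contusion at 16 to 18 weeks of age, so the rats of the chronic phase were older at collection and age cannot be told apart from time after injury. No uninjured cord enters the series here, so all levels are those of injured tissue. Rats were perfused with saline and the 1-mm segment through the lesion was frozen for polyadenylated RNA.

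The deposited tables give 1 pooled FPKM for each group of 3 rats, so the SD comparison has no replicate error, and no test, standard error or p-value can be attached to it. The rats at 1 week and at 8 weeks were different animals. Each phase was also quantified in its own run, so time after injury cannot be told apart from anything else that differed between the runs or the groups of animals. The depth behind each gene is unknown, since the tables hold no counts. The log2 ratio of the 8-week over the 1-week SD FPKM was centred on its median over the 10991 genes, which lay at 0.01 before centring. A gene is called higher or lower at 8 weeks below when the centred ratio passed 2-fold, and both words describe pooled levels only.

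After contusion, a lesion passes from an inflammatory and proliferative stage, in which phagocytes enter, glia and fibroblast-like cells divide and scar matrix is laid down, to a chronic stage with a settled scar, a glial border and often a fluid-filled cavity. Cell division genes, matrix genes and phagocyte genes mark the early stage. Astrocyte, ependymal, myelin and neuronal genes report the tissue that remains or rebuilds. In whole tissue, fewer cells of a type and less RNA per cell cannot be told apart.

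Of the 10991 genes, 288 were at least 2-fold higher at 8 weeks (2.62%) and 318 at least 2-fold lower (2.89%). The other 10385 genes, 94.5%, lay within 2-fold. The middle of the distribution was narrow, with the 25th percentile of the centred log2 ratio at -0.21 and the 75th at 0.23, whereas its ends reached -4.09 and 3.42. The share past 2-fold varied with level. Among 1410 genes with a geometric mean SD level from 2 to 5 FPKM, 5.6% were higher and 6.10% lower, and among 5191 genes from 10 to 50 FPKM the shares were 1.64% and 2.02%. Among 1716 genes from 50 to 200 FPKM they were 1.46% and 1.52%, and among 429 genes above 200 FPKM 3.5% and 3.5%. The median SD level was 17.3 FPKM at 1 week and 17.5 FPKM at 8 weeks.

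**Figure D1:**
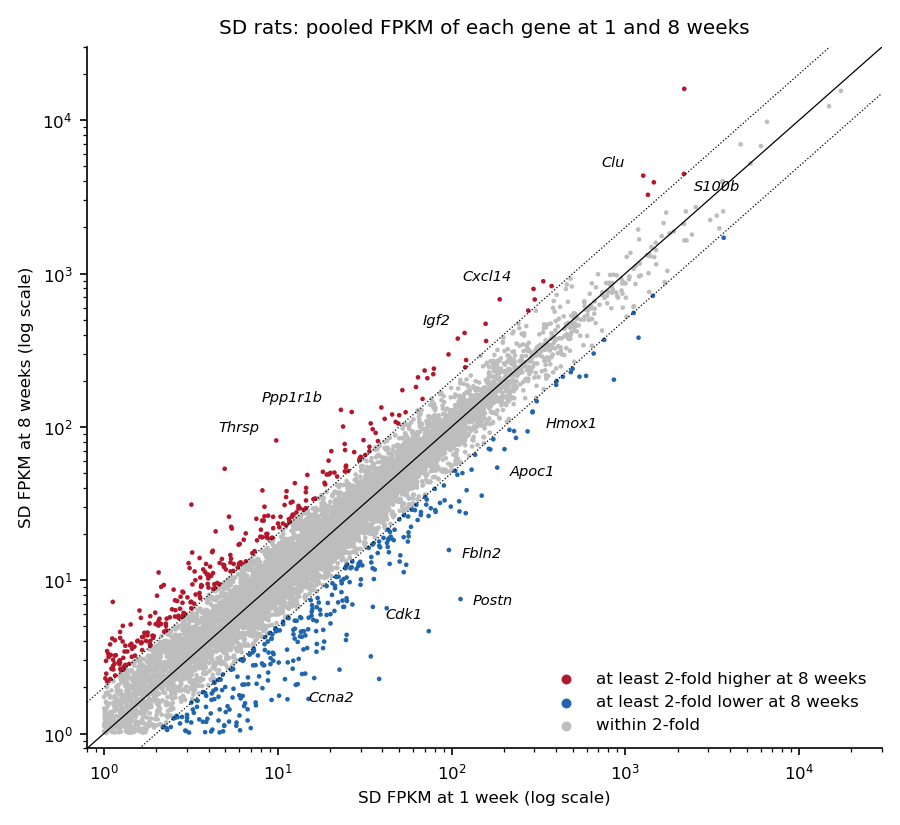
Pooled SD FPKM of each of the 10991 genes at 1 week (horizontal axis, log scale) and at 8 weeks (vertical axis, log scale). Red points were at least 2-fold higher and blue points at least 2-fold lower at 8 weeks, the solid line marks equal levels and the dotted lines mark 2-fold. Most genes lie along the solid line, and Postn and Thrsp stand far from it on opposite sides.

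The tables name genes by rat genome database identifier. A symbol was used only where another table paired it with the identifier, which named 3780 of the 10991 genes (34.4%). Of these, 1770 were named from a supplementary table of the study, and 2010 from RefSeq synonyms. The copy of that table used here holds only its opening rows, all of which are genes called different between strains in the acute phase. These supplementary names are not a neutral sample, because the SD level at 1 week took part in the call. They passed 2-fold more often than the rest, with 7.29% higher and 7.46% lower, against 1.24% and 1.99% of the genes named from RefSeq and 1.86% and 2.02% of the 7211 genes without a symbol. Counts for a gene list are therefore read against both the share over all genes and the share over the supplementary names. Of the 50 lowest ratios among genes reaching 10 FPKM in either phase, 21 belonged to genes without a symbol, and of the 50 highest, 22.

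The labelled tissue was checked against defining markers, of which 12 of 42 had a symbol here, all measured. Snap25, a synaptic membrane fusion protein of neurons, was at 179 FPKM at 1 week and 213 FPKM at 8 weeks. The myelin glycoprotein Mag was at 486 and 402 FPKM, and the astrocyte glutamate transporter Slc1a2 at 59.5 and 91.1 FPKM. The cord's own cell classes were thus present in both phases. Itgam, an integrin of microglia, macrophages and neutrophils, was at 63.2 and 43.7 FPKM. Cd3g, which forms part of the antigen receptor on T cells, was at 2.74 and 2.58 FPKM. The skeletal muscle actin Acta1 was at 9.76 and 4.64 FPKM, the muscle list had 0 of 9 measured members higher and 2 lower, and its part in other results was not tested.

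The 12 lowest ratios among named genes reaching 10 FPKM in either phase included matrix, myeloid receptor and mitotic genes. Postn, which encodes the matricellular protein periostin of healing and fibrotic tissue (RGD:1305285, RN4 chr2:143537098-143568341), was at 113 FPKM at 1 week and 7.53 FPKM at 8 weeks. That is a 15.1-fold lower level, with a centred log2 ratio of -3.91. Fbln2, which encodes the matrix glycoprotein fibulin-2, went from 96.6 to 15.7 FPKM, a centred log2 ratio of -2.63. Col7a1, the anchoring fibril collagen, went from 13.0 to 2.10 FPKM, a centred log2 ratio of -2.64. Of these matrix genes, Postn and Fbln2 were well above the median SD level at 1 week, and Col7a1 was below it. Of the 8 collagens with a symbol, a family chosen after its values were seen, 2 were lower (Col7a1 and Col8a1, the latter at -1.27), 0 were higher, the other 6 lay between -0.33 and 0.42, and the median was -0.27.

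Adam8, a membrane metalloproteinase of leukocytes, was at 22.7 FPKM at 1 week and 2.61 FPKM at 8 weeks, a centred log2 ratio of -3.13. Trem1, an activating receptor of neutrophils and monocytes, was at 16.2 and 2.30 FPKM, a ratio of -2.83. Pilra, a paired inhibitory receptor of myeloid cells, was at 15.0 and 1.68 FPKM, a ratio of -3.17. Each of these myeloid surface genes was above 15 FPKM at 1 week and under 3 FPKM at 8 weeks. Calcb, the beta form of the calcitonin gene-related peptide made by sensory and motor neurons, was at 42.4 and 6.57 FPKM, a ratio of -2.70, and was the gene of lowest ratio in the transmitter list. RGD1562067, a predicted gene, was at 11.4 and 1.67 FPKM, a ratio of -2.78.

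At the other end, under the same limit of 10 FPKM, stood the following genes. Thrsp, a nuclear protein linked to fatty acid synthesis (RGD:3859, RN4 chr1:154647338-154651663), was at 9.81 FPKM at 1 week and 81.5 FPKM at 8 weeks, which is 8.25-fold higher. Ppp1r1b, the phosphatase inhibitor DARPP-32, was at 23.1 and 129 FPKM, a centred log2 ratio of 2.47. Lcat, which esterifies cholesterol on lipoproteins, was at 109 and 376 FPKM, a ratio of 1.78. Acsm5, a medium-chain acyl-CoA synthetase, was at 5.44 and 21.7 FPKM, a ratio of 1.99. Lipid genes were not all on this side, as the lipid transport list given further on shows.

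Igf2, an insulin-like growth factor made by meninges and choroid plexus in the adult, was at 119 and 409 FPKM, a centred log2 ratio of 1.77. Nnat, the imprinted gene neuronatin, was at 189 and 679 FPKM, a ratio of 1.83, although its reading shares a locus with another row. Ecrg4, a secreted protein of choroid plexus and other epithelia, was at 23.8 and 100.5 FPKM, a ratio of 2.07. Slc39a12, a zinc importer, was at 5.40 and 22.3 FPKM, a ratio of 2.04. Of the remaining genes of the 12 highest, Calml4 (calmodulin-like), Cfap144 (cilia and flagella associated) and Ccdc148 (coiled-coil, sharing a locus with another row) had ratios of 2.23, 1.87 and 2.06, and the uncharacterised LOC681186 1.94. The 12 highest named genes were thus of varied function.

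**Figure D2:**
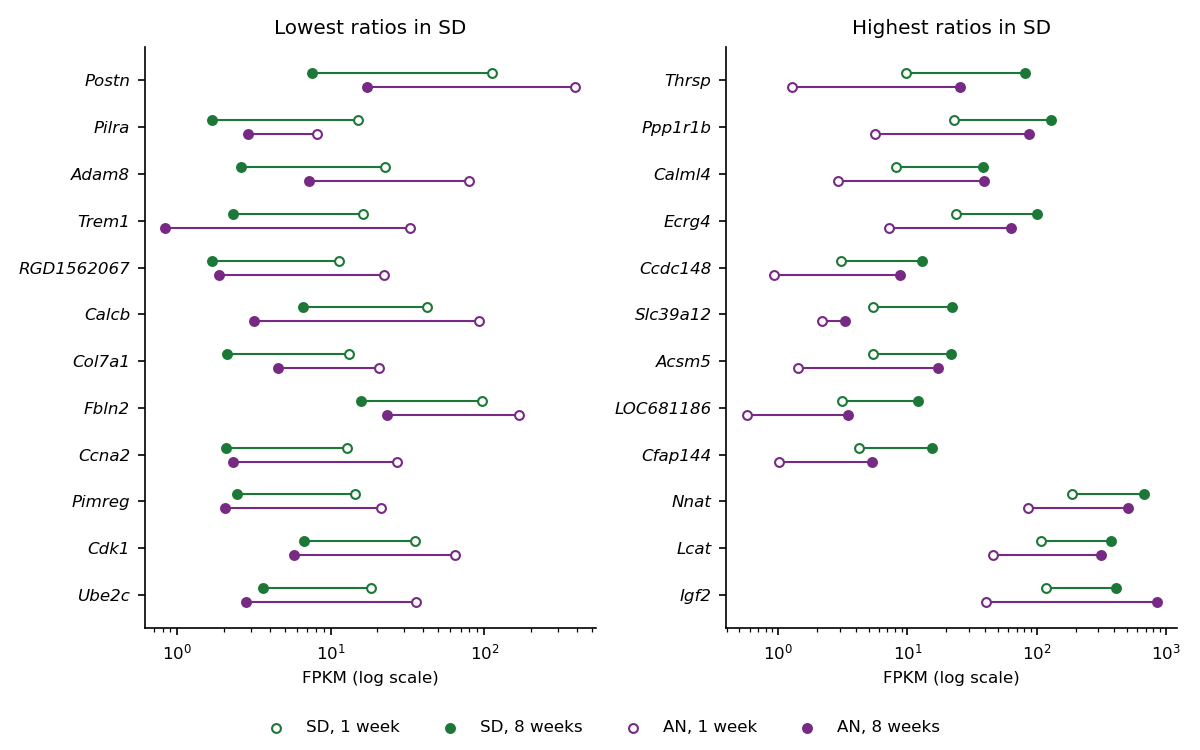
FPKM (log scale) at 1 week (open circles) and 8 weeks (filled circles), with SD in green and AN in purple, 1 pooled value per group. Shown are the 12 lowest and the 12 highest centred ratios in SD among named genes reaching 10 FPKM in SD in either phase. Each SD pair runs leftward in the left panel and rightward in the right panel, and the AN pair runs the same way in each of the 24 genes.

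The most abundant gene with a symbol at 8 weeks was S100b, a calcium-binding protein of astrocytes and other glia. It was at 2173 FPKM at 1 week and 4461 FPKM at 8 weeks, a centred log2 ratio of 1.03. Clu, which encodes the secreted chaperone clusterin, was at 1268 and 4349 FPKM, which is 3.41-fold higher. Both readings share a locus with another row. A gene without a symbol here, RGD:3433, reached the highest SD level of all at 8 weeks, with 2184 FPKM at 1 week and 16015 FPKM at 8 weeks, a ratio of 2.86. Of the summed SD FPKM, 11.8% lay in the top 10 genes at 1 week and 13.9% at 8 weeks.

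No tested gene was at 10 FPKM or more in a phase and below 1 FPKM in the other. The only listed row of that kind had a failed estimate, which the table lists at 0. Genes tested in both phases but reaching 1 FPKM only at 1 week numbered 175, and those reaching it only at 8 weeks numbered 220. Of the genes outside the comparison for this reason, Melk, a mitotic kinase, was at 3.85 FPKM at 1 week and 0.819 FPKM at 8 weeks. Mybl2, a transcription factor of dividing cells, was at 3.30 and 0.724 FPKM, and Espl1, the protease that releases sister chromatids, at 3.56 and 0.696 FPKM. These were chosen after their values were seen, and they belong to the functional group described next. At the threshold itself, the lowest SD level of a gene inside was 1.001 FPKM and the highest of a gene just outside was 0.9998 FPKM.

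The cell cycle list was the most displaced of the long lists. Of its 40 measured members, 32 were at least 2-fold lower at 8 weeks, 0 were higher, and the median centred log2 ratio was -1.79. Over all genes 2.89% were lower, and over the supplementary names 7.46%. By source of name, 30 of 35 members named from the supplementary list were lower, and 2 of 5 named from RefSeq, with a median of -0.95 for the latter. In 34 of those 35 the 1-week level was higher in AN than in SD, so SD was the lower of the pair on which that call between strains rested. Most of these genes were under 5 FPKM at 8 weeks, and with at least 5 FPKM required in both phases 5 members were lower.

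Cyclins and kinases drive entry into and passage through mitosis. Ccna2, the S and G2 phase cyclin, was at 12.7 FPKM at 1 week and 2.08 FPKM at 8 weeks, a centred log2 ratio of -2.62. Cdk1, the mitotic cyclin-dependent kinase (RGD:2319, RN4 chr20:20018043-20044030), was at 35.3 and 6.70 FPKM, a 5.31-fold lower level. Ccnb1, its mitotic partner, was at 18.5 and 3.98 FPKM, a ratio of -2.23. The kinases Plk1 and Aurkb had ratios of -2.05 and -1.58. Mki67, the proliferation antigen Ki-67, was at 12.2 and 2.65 FPKM, a ratio of -2.21.

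Most genes named here of the spindle and its checkpoint were lower. Mad2l1, a core checkpoint protein, stayed just within 2-fold, at 11.4 FPKM at 1 week and 5.84 FPKM at 8 weeks, a ratio of -0.98. Bub1b, a checkpoint kinase-like protein, was at 6.07 FPKM at 1 week and 1.05 FPKM at 8 weeks, a ratio of -2.54. Ndc80, Nuf2 and Spc25, which are subunits of the complex that ties kinetochores to microtubules, had ratios of -2.06, -1.67 and -1.99. Ube2c, which with the anaphase-promoting complex marks cyclins for destruction, was at 18.2 and 3.60 FPKM, a ratio of -2.35, and the activator Cdc20 was at 21.2 and 6.31 FPKM, a ratio of -1.76. Prc1, which bundles the central spindle, was at 16.7 and 3.42 FPKM, a ratio of -2.30. Pimreg, a mitotic regulator outside the list, was at 14.4 and 2.46 FPKM, a ratio of -2.56, with a locus that another row shares.

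Replication genes of the list named here lay partly past 2-fold and partly within it. Mcm5, Mcm6 and Mcm2, subunits of the replicative helicase, had ratios of -2.04, -1.37 and -0.90, and Gins1, a partner of that helicase, -1.16, so Mcm2 stayed within 2-fold. Foxm1, a transcription factor of the G2 phase, was at 7.69 and 3.23 FPKM, a ratio of -1.26. The members that stayed near 0 were Incenp at -0.11, Gins2 at -0.01 (with a shared locus), Anln at 0.16 and Stmn1 at 0.32. Of these, Stmn1, a microtubule regulator also abundant in neurons, was at 188 and 237 FPKM, far above the others, and Anln is also made by myelinating oligodendrocytes.

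**Figure D3:**
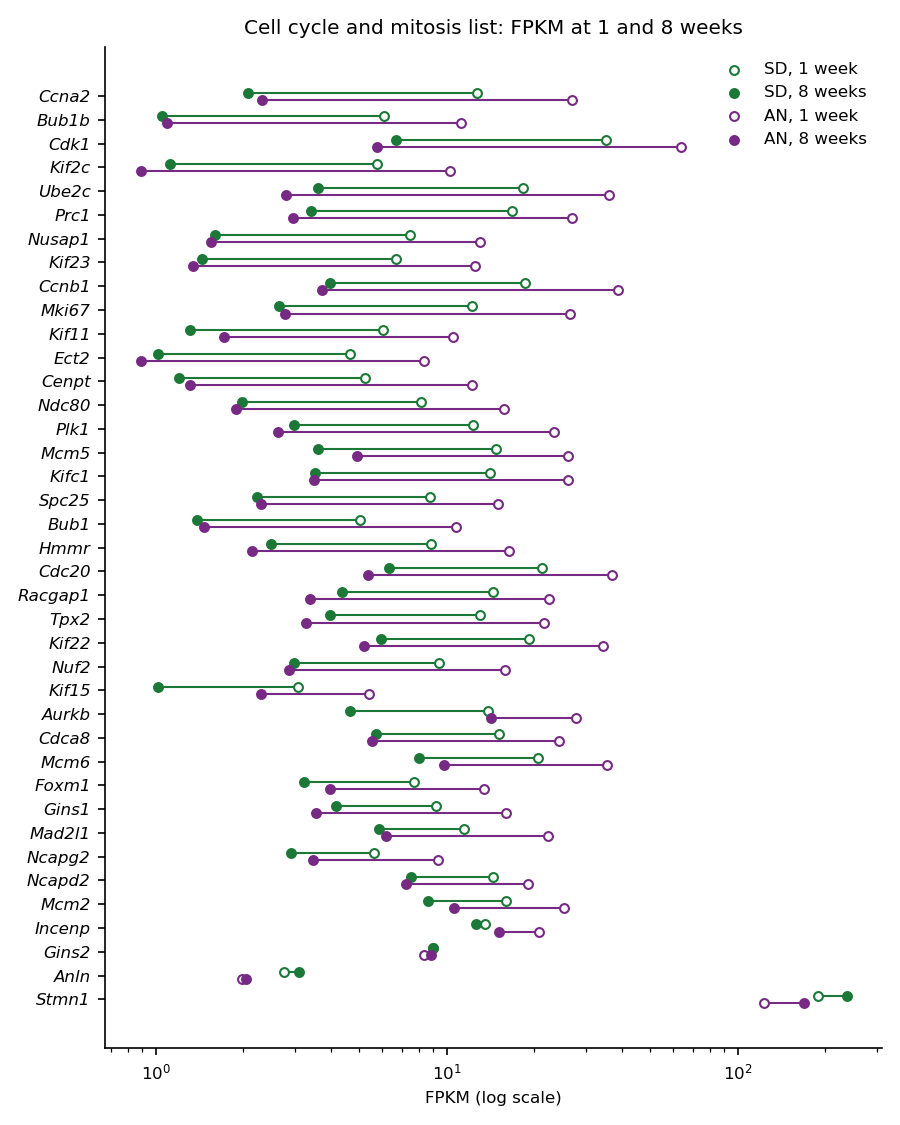
FPKM (log scale) at 1 week (open circles) and 8 weeks (filled circles) of the measured members of the cell cycle and mitosis list, with 1 of the 40 not shown, ordered by their centred ratio in SD, with SD in green and AN in purple. The filled SD circle lies left of the open one or beside it in each member shown except Anln and Stmn1, where it lies to the right.

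Genes that act in mitosis are known to carry, just before their start sites, a cell cycle genes homology region (CHR, with the letters TTTGAA) read together with CCAAT boxes. Of the 32 cell cycle members lower at 8 weeks, 24 had a promoter in the RefSeq table (build GRCr8, 300 bases, from 250 before to 50 after the start). The CHR letters, on either strand, were in 17 of these 24 promoters (70.8%), against 18.1% of all 27457 promoters. CCAAT, on either strand, was in 18 of 24 (75%), against 37.7%. Both were in 13 of 24 (54.2%), against 7.25%. A match is a run of letters and not a shown site of binding. The members were known mitotic genes from the outset, so these shares describe the list and not the change in level.

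The promoters of 4 of these genes with both motifs, and of Ccnb1, which had CCAAT and no CHR letters in the window, are printed so that the arrangement can be seen. Capitals mark the CHR and CCAAT letters or, where these lie on the other strand, their reverse complements, and in Mki67 1 pair of motifs overlaps. The windows are from RefSeq, build GRCr8, at chr20:19265043-19265342, plus strand (Cdk1), chr1:199952544-199952843, minus strand (Mki67), chr1:143659231-143659530, plus strand (Prc1), chr5:137255750-137256049, minus strand (Cdc20) and chr2:33655176-33655475, minus strand (Ccnb1).
Cdk1: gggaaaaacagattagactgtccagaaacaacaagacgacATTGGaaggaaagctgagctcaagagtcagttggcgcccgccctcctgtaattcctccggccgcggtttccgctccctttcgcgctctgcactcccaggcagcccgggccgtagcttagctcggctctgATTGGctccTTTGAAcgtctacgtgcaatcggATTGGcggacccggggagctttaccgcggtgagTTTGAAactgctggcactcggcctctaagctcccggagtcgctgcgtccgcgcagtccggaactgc
Mki67: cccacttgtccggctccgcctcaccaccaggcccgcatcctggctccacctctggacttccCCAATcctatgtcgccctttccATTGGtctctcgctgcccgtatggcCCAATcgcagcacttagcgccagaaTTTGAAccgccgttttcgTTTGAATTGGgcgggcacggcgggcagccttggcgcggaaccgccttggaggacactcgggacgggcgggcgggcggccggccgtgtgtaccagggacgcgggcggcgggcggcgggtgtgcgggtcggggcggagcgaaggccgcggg
Prc1: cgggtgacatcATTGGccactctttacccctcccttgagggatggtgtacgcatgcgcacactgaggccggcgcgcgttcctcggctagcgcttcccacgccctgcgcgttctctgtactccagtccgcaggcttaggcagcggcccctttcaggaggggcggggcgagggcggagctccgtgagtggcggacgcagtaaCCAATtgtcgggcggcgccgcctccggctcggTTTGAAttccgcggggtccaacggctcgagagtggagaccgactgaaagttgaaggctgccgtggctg
Cdc20: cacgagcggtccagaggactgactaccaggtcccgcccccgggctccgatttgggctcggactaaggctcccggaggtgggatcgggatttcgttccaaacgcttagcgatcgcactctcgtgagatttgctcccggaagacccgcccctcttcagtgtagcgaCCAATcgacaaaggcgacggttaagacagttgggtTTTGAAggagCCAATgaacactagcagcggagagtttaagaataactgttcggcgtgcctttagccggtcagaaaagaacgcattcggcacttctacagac
Ccnb1: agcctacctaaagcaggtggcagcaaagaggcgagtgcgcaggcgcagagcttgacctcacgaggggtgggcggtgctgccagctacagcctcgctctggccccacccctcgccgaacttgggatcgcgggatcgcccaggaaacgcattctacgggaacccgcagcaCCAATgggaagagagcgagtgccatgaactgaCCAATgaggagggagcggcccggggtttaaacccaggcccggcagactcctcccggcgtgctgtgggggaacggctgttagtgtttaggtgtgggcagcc

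In the other promoters searched, the interferon-stimulated response element (either strand) was in 9 of 12 matched interferon list members (75%), against 3.77% of all promoters. That list stayed level in SD, as given next. The sterol element letters (TCACNCCAC, either strand) were in 0 of 3 matched cholesterol list members, against 1.13% of all promoters. Among all named genes higher at 8 weeks, the CHR letters were in 8 of 112 matched promoters (7.14%), and among all named genes lower, in 30 of 120 (25%). Over all members with a symbol they were in 345 of 2946 matched promoters (11.7%), and among the lower genes without the cell cycle members in 13 of 96 (13.5%).

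Matrix genes formed the other large displaced group. Of 17 measured members of the scar matrix list, 10 were lower, 1 was higher, and the median centred log2 ratio was -1.06. All 17 were named from the supplementary list, in which 7.46% of genes were lower and 7.29% higher, against 2.89% and 2.62% over all genes. Loxl2 and Lox, which crosslink collagen and elastin, were at 44.0 and 45.1 FPKM at 1 week and at 12.8 and 18.7 FPKM at 8 weeks. Ltbp2 and Fbn1, components of microfibrils, had centred log2 ratios of -1.69 and -1.50. The readings of Lox and Fbn1 share a locus with another row. Mgp, the matrix Gla protein that inhibits calcification, was at 1441 and 715 FPKM, a ratio of -1.02. The member on the other side was Fmod, the collagen-binding proteoglycan fibromodulin, at 37.7 and 80.7 FPKM, a ratio of 1.09. The helper of collagen folding Serpinh1 was within 2-fold, at 364 and 274 FPKM.

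The measured genes of enzymes that degrade matrix and of their inhibitors all had ratios below 0, from -2.24 to -0.05. Of 8 measured members of the metalloproteinase and inhibitor list, 4 were lower and 0 higher, with a median of -1.10. Over all genes 2.89% were lower, and over the supplementary names, which gave 7 of the 8, 7.46%. Mmp12, the macrophage elastase, was at 53.1 FPKM at 1 week and 11.3 FPKM at 8 weeks, a ratio of -2.24. Plau, the urokinase that activates plasminogen, was at 58.5 and 22.3 FPKM, a ratio of -1.40. Adamts8 was at 4.14 and 1.03 FPKM, a ratio of -2.02, close to the lowest level admitted. In the basement membrane list, 1 of 3 measured members was lower, the vascular laminin chain Lama4 at 24.6 and 12.0 FPKM, a ratio of -1.05. None of 5 chondroitin sulfate proteoglycan genes passed 2-fold, and the brain proteoglycan Bcan was at 167 and 171 FPKM.

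The macrophage and microglia list was shifted less than the matrix list. Of 21 measured members, 3 were lower, 1 was higher, 18 had a ratio below 0, and the median was -0.42. Lower genes made up 2.89% of all genes and 7.46% of the supplementary names, which gave 19 of the 21. Higher genes made up 2.62% and 7.29%. Mrc1, the mannose receptor, was at 42.5 FPKM at 1 week and 17.5 FPKM at 8 weeks, a ratio of -1.29, and Lpl, lipoprotein lipase, at 24.9 and 10.4 FPKM, a ratio of -1.27. Siglec1, a sialic acid receptor of macrophages, was at 53.6 and 28.6 FPKM, a ratio of -0.92, within 2-fold. Chi3l1, a chitinase-like protein of macrophages and astrocytes, was the member on the other side, at 72.6 and 208 FPKM, a ratio of 1.51. The microglial receptors Cx3cr1 and Tmem119 had ratios of -0.35 and -0.25.

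Other innate genes were divided. In the complement list, C1qc, a chain of the recognition protein C1q, was at 1116 FPKM at 1 week and 553 FPKM at 8 weeks, a ratio of -1.02, and properdin (Cfp) at 63.8 and 24.7 FPKM, a ratio of -1.38. On the other side were Clu, already given, and Cfb, complement factor B, at 22.0 and 41.7 FPKM, a ratio of 0.91. The list's 6 measured members had 1 higher, 2 lower and a median of 0.30. All 6 were supplementary names, of which 7.29% were higher and 7.46% lower, against 2.62% and 2.89% of all genes. The remaining 2 were rows for C4b, whose near-identical copies make the reading uncertain.

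Among 10 chemokine and receptor genes, 1 was higher and 1 lower. The supplementary names, which gave 9 of the 10, held 7.29% higher and 7.46% lower, against 2.62% and 2.89% over all genes. Cxcl14, a chemokine of epithelia and brain, was at 296 FPKM at 1 week and 794 FPKM at 8 weeks, a ratio of 1.41. Pf4, the platelet factor 4 of platelets and macrophages, was at 292 and 124 FPKM, a ratio of -1.24. These abundant members were on opposite sides. Cxcl13, the B cell attractant, was at 7.15 and 12.6 FPKM, a ratio of 0.81. Of 12 cytokine and receptor genes, 0 were higher and 0 lower, but 11 had a ratio below 0 and the median was -0.48. The common cytokine receptor gamma chain Il2rg, the lowest, was at 13.0 and 6.90 FPKM, a ratio of -0.93.

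Lymphocyte genes were few under the naming used. Lower genes made up 2.89% of all genes and 7.46% of the supplementary names. Cd8a, a coreceptor of cytotoxic T cells that rat NK cells and some macrophages also carry, was at 76.0 FPKM at 1 week and 29.5 FPKM at 8 weeks, a ratio of -1.38. Cd4, the helper T cell coreceptor that rat macrophages also carry, was at 102 and 94.0 FPKM, a ratio of -0.13, and Cd3g stayed near 2.7 FPKM. The T cell list thus had 0 of 3 measured members higher and 1 lower. Of 3 NK cell genes, Ly49si2 was lower, at 2.97 and 1.04 FPKM, and Klra5 was level at 15.9 and 15.8 FPKM. Both belong to a family of near-identical receptors. Of 3 dendritic cell genes, Itgax, the integrin CD11c, was lower, at 16.6 and 4.65 FPKM, a ratio of -1.85.

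Interferon-stimulated genes were level. Of 17 measured members, 0 were higher and 0 lower, where 94.5% of all genes lay within 2-fold. The median was -0.04, and the range ran from -0.51 to 0.60. Mx1, an antiviral GTPase, was at 47.0 FPKM at 1 week and 33.2 FPKM at 8 weeks, and Bst2, or tetherin, at 211 and 321 FPKM. These were the ends of the range. None of 8 MHC class I genes passed 2-fold, with a median of -0.06. Psmb8, an immunoproteasome subunit, was at 97.6 and 90.6 FPKM, a ratio of -0.12, and several class I genes are near-identical copies.

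Genes of lipid uptake and of haem handling serve cells that clear debris and blood, and all of those measured were named from the supplementary list, in which 7.46% of genes were lower, against 2.89% over all genes. In the lipid list 3 of 8 measured members were lower, 0 were higher, and the median was -0.61. Apoc1, an apolipoprotein of macrophages, was at 183 FPKM at 1 week and 54.2 FPKM at 8 weeks, a ratio of -1.77, and the fatty acid carrier Fabp4 at 81.0 and 27.9 FPKM, a ratio of -1.55. Fabp4 is also a gene of fat cells, and of the 4 measured fat cell genes 2 were lower and 1 was higher. The 2 lower ones were Fabp4 itself and Lpl, both already counted in the lipid list. The higher one was Cidea, a lipid droplet protein, at 24.4 and 70.6 FPKM, a ratio of 1.52. Hmox1, which breaks down haem, was at 293 and 126 FPKM, a ratio of -1.23, and the transferrin receptor Tfrc at 53.2 and 26.5 FPKM, a ratio of -1.02. The haem and iron list had 2 of 6 measured members lower and 0 higher, with a median of -0.17. The 5 cholesterol synthesis genes stayed within 2-fold, with a median of -0.09.

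**Figure D4:**
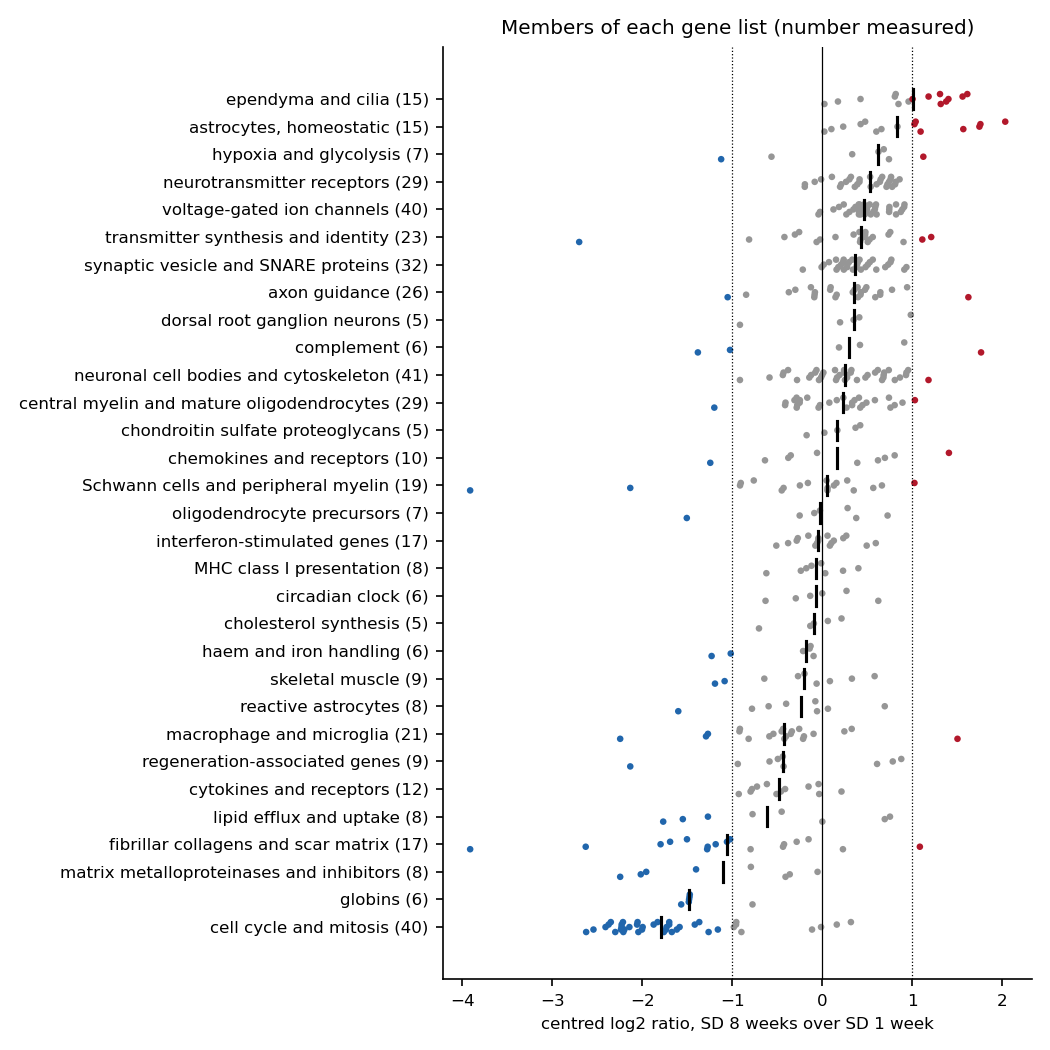
Centred log2 ratio of SD at 8 weeks over SD at 1 week (horizontal axis) for each measured member of the lists with at least 5 of them, ordered by the list median (black bar), with the number measured in brackets. Red points were at least 2-fold higher, blue points at least 2-fold lower, and dotted lines mark 2-fold. The cell cycle list lies at the bottom, with a median of -1.79, and the ependyma and cilia list at the top, with a median of 1.01.

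Astrocyte genes were on the other side of the distribution. Of 15 measured members of the homeostatic astrocyte list, 7 were higher, 0 were lower, all 15 had a ratio above 0, and the median was 0.84. The background was 2.62% over all genes and 7.29% over the supplementary names, from which all 15 came. Agt, angiotensinogen, was at 157 FPKM at 1 week and 470 FPKM at 8 weeks, a ratio of 1.57. Cbs, the enzyme that makes cystathionine, was at 20.3 and 69.4 FPKM, a ratio of 1.76, and Slc25a18, a mitochondrial glutamate carrier, at 11.2 and 38.1 FPKM, a ratio of 1.75. The potassium channel Kcnj10 had a ratio of 0.10, so the genes of this cell type did not share 1 ratio. The list of reactive astrocyte genes did not follow. Of its 8 measured members 0 were higher and 1 was lower, with a median of -0.24. The lower one, Serpina3n, a protease inhibitor of reactive glia, was at 12.5 and 4.16 FPKM, a ratio of -1.60.

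Ependymal cells line the central canal and carry motile cilia. Of 15 measured members of the ependyma and cilia list, 8 were higher, 0 lower, all 15 had a ratio above 0, and the median was 1.01. Over all genes 2.62% were higher, and over the supplementary names, which gave 12 of the 15, 7.29%. Dynlrb2, a dynein light chain, was at 6.55 FPKM at 1 week and 20.2 FPKM at 8 weeks, a ratio of 1.61. Lrrc23 and Rsph1, parts of the radial spokes that regulate ciliary beating, were at 8.00 and 4.24 FPKM at 1 week and at 21.3 and 11.1 FPKM at 8 weeks. Tmem212 was at 1.09 and 3.26 FPKM, a ratio of 1.56, from a level near the minimum. By source of name, 8 of 12 members named from the supplementary list were higher and 0 of 3 named from RefSeq, whose median was 0.82. In contrast to the astrocyte genes, most ciliary genes were at low levels, under 15 FPKM at 8 weeks in 12 of the 15.

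Neuronal genes mostly stayed within 2-fold in SD, as did 94.5% of all genes. Of 41 measured members of the neuronal list, 1 was higher, 0 were lower, and the median was 0.25. The shares were 2.62% higher and 2.89% lower over all genes. In the supplementary names, which gave all 41, they were 7.29% and 7.46%, with a median of 0.28. The higher one was Scg2, a secretory granule protein, at 54.4 FPKM at 1 week and 125 FPKM at 8 weeks, a ratio of 1.18. The neurofilament chains Nefl and Nefm, which fill large axons, were at 205 and 189 FPKM at 1 week and at 170 and 147 FPKM at 8 weeks, with ratios of -0.28 and -0.38, and the reading of Nefl shares a locus with another row. The lowest was Prph, the intermediate filament peripherin of motor, sensory and autonomic neurons, at 53.1 and 28.4 FPKM, a ratio of -0.91.

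Synaptic and excitability genes leaned upward without passing 2-fold. Of 32 synaptic vesicle and SNARE genes, 0 were higher and 0 lower, 30 had a ratio above 0, and the median was 0.36. Of 29 receptor subunit genes 25 had a ratio above 0, with a median of 0.53, and of 40 voltage-gated channel genes 38 did, with a median of 0.47. In neither list did a member pass 2-fold, and of all genes 94.5% did not. Syt1, the calcium sensor of vesicle release, was at 9.37 FPKM at 1 week and 18.1 FPKM at 8 weeks, a ratio of 0.94. Gabrb1 and Gabra2, subunits of inhibitory GABA receptors, had ratios of 0.86 and 0.82. All of these genes were named from the supplementary list, over which the median ratio was 0.28. Among 23 transmitter genes, the peptide Nts was at 5.03 and 11.7 FPKM, a ratio of 1.21, and Ddc, a decarboxylase of monoamine synthesis, at 4.32 and 9.41 FPKM, a ratio of 1.11. Calcb, given above, was the 1 lower member.

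Myelin genes stayed within 2-fold in 27 of 29 cases, with a median of 0.24, and so did 94.5% of all genes. The median over the supplementary names, which gave 28 of the 29, was 0.28. Mag, given above, had a ratio of -0.28, and Mog, another glycoprotein of the myelin surface, was at 134 FPKM at 1 week and 184 FPKM at 8 weeks, a ratio of 0.45, with a locus that another row shares. The higher member was Car2, a carbonic anhydrase, at 33.7 and 69.3 FPKM, a ratio of 1.03. The lower one was Nfasc, the adhesion protein neurofascin of nodes and paranodes, at 164 and 71.9 FPKM, a ratio of -1.20. Among 7 genes of oligodendrocyte precursors, Gpr17, a receptor of cells committed to differentiate, was lower, at 80.7 and 28.6 FPKM, a ratio of -1.50, with a shared locus. Olig1 and Olig2, transcription factors of the whole lineage, had ratios of -0.02 and -0.25.

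Schwann cell genes mark peripheral glia that enter injured cord or come with the roots. Prx, periaxin of peripheral myelin, was at 60.1 FPKM at 1 week and 63.1 FPKM at 8 weeks, a ratio of 0.06, and Pmp22, a membrane protein of compact peripheral myelin, at 500.2 and 526 FPKM, a ratio of 0.06. These peripheral myelin genes were level. Ngfr, the low-affinity neurotrophin receptor of immature and repair Schwann cells, was at 54.9 and 12.6 FPKM, a ratio of -2.13, and Pmp2, a lipid-binding protein of peripheral myelin, at 84.4 and 45.4 FPKM, a ratio of -0.90. Of the 19 measured members 1 was higher (S100b) and 2 lower (Postn and Ngfr), with a median of 0.05. All 19 were supplementary names, of which 7.29% were higher and 7.46% lower, against 2.62% and 2.89% of all genes. Ngfr was also the 1 lower gene of 9 in the regeneration list, which had 0 higher and a median of -0.44.

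Axon guidance genes held 1 higher and 1 lower of 26, with a median of 0.35. The supplementary names, which gave 22 of the 26, held 7.29% higher and 7.46% lower, against 2.62% and 2.89% over all genes. Efnb3, an ephrin of the midline and of myelin that repels axons, was at 8.39 FPKM at 1 week and 26.1 FPKM at 8 weeks, a ratio of 1.63. Sema6a, a membrane semaphorin, was at 33.4 and 16.2 FPKM, a ratio of -1.05. In the vascular lists, the apelin receptor Aplnr of endothelium was at 29.7 and 62.5 FPKM, a ratio of 1.06, the 1 higher gene of 4. Of 4 mural cell genes, Mylk and Myh11, a kinase and a myosin of smooth muscle, each had a ratio of 0.98, just within 2-fold. Insulin-like growth factor genes were split. Beside Igf2, which was higher, the binding protein Igfbp4 was at 56.1 and 17.9 FPKM, a ratio of -1.66, and the RNA-binding protein Igf2bp2 at 7.49 and 1.53 FPKM, a ratio of -2.31. In the hypoxia and glycolysis list 1 of 7 was higher, Ldhb, a lactate dehydrogenase subunit, at 377 and 828 FPKM, and 1 lower, Hk3, a hexokinase of myeloid cells, at 56.3 and 26.0 FPKM.

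Globin transcripts, typical of red cells, were lower in the pooled SD value at 8 weeks. Of 6 measured members, 5 were lower, 0 higher, and the median was -1.48. All 6 were named from the supplementary list, in which 7.46% of genes were lower, against 2.89% over all genes. At 1 week AN was above SD in 0 of the 6. SD was thus the higher of the pair on which that call between strains rested. Hba-a2, an alpha globin, was at 595 FPKM at 1 week and 215 FPKM at 8 weeks, and the 5 lower members lay between -1.57 and -1.47. Near-identical globin copies share reads, so they are not separate measurements. The source of these transcripts in the perfused segments, and any part of blood in the values of other genes, was not tested.

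The same ratio was computed in AN rats to show where the SD pattern is shared. AN values are pooled in the same way, and the SD and AN samples of a phase were quantified in the same run, so anything particular to a run would act on both ratios. Across the 10988 genes with AN levels above 0, Pearson's r between the SD and the AN ratio was 0.79 and Spearman's rho 0.78, as a description across genes, which are not independent. In AN, 1299 genes (11.8%) were higher and 607 (5.52%) lower at 8 weeks. The floor of 1 FPKM was set on SD levels only, so the AN ratios include levels below it. These AN shares and overlaps are therefore not on the same footing as the SD shares. The same rule set on AN levels leaves 10479 genes. Of the 288 genes higher in SD, 260 were also higher in AN, which is 90.3% of the SD genes and 20.0% of the AN genes. Of the 318 lower in SD, 234 were also lower in AN, which is 73.6% of the SD genes and 38.6% of the AN genes. No difference between the strains was tested, because neither ratio has an error.

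**Figure D5:**
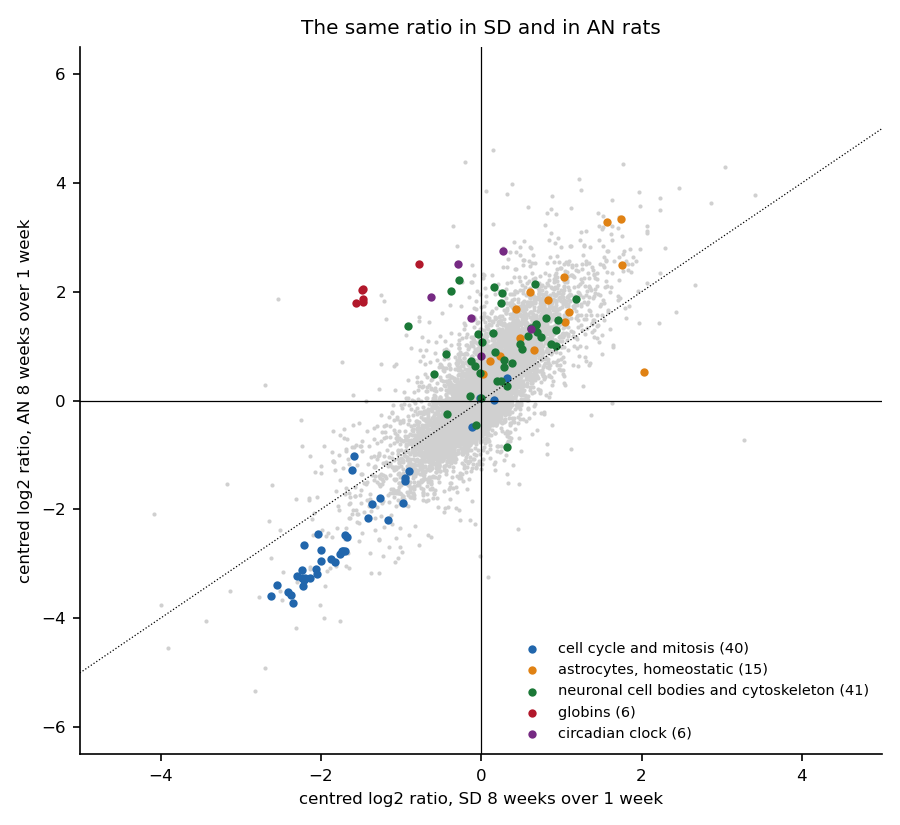
Centred log2 ratio of 8 weeks over 1 week in SD (horizontal axis) and in AN rats (vertical axis) for the genes with levels above 0 in both, with members of 5 lists in colour and the dotted line marking equal ratios. Cell cycle genes lie at the lower left, the globins at the upper left, and most neuronal genes above the dotted line.

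For the groups described above, the median SD and AN ratios stood side by side as follows. The cell cycle list had -1.79 in SD and -2.76 in AN, and the scar matrix list -1.06 and -1.60. The astrocyte list had 0.84 and 1.64, and the ependyma and cilia list 1.01 and 1.53. These 4 groups had the same sign in both strains. Interferon genes were near 0 in both, at -0.04 and -0.10. The neuronal list had 0.25 in SD and 1.05 in AN, the myelin list 0.24 and 0.96, and the Schwann cell list 0.05 and 1.24. These lists were nearly level in SD. In the neuronal list all 41 members had a lower AN than SD level at 1 week and at 8 weeks, and the supplementary names used here are all genes called different between the strains at 1 week.

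Pooled levels of some single genes are given side by side, chosen after their values were seen and not by the size of the contrast. Nefl was at 205 and 170 FPKM in SD, and at 8.68 and 41.4 FPKM in AN. Mmp12 was at 53.1 and 11.3 FPKM in SD, and at 96.0 and 76.5 FPKM in AN. Nefl therefore went from a wide to a narrower gap between strains, and Mmp12 from a narrow to a wider one. Slc39a12 was at 5.40 and 22.3 FPKM in SD, and at 2.20 and 3.27 FPKM in AN. Igf2 was at 119 and 409 FPKM in SD, and at 40.6 and 852 FPKM in AN, so the strain with the higher pooled level was SD at 1 week and AN at 8 weeks. The clock genes, which vary with the time of day at which tissue is taken, had a median of -0.07 in SD and 1.71 in AN over 6 members. Among them Dbp, an output gene of the clock, was at 68.0 and 56.0 FPKM in SD, and at 26.6 and 155 FPKM in AN. In SD 0 of the 6 clock genes passed 2-fold.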

How the data were processed

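RNA-seq of the lesion segment covered 12 rats in 4 groups of 3. Per the study's methods and the submitters' processing notes, the authors removed adapters with CutAdapt, aligned the reads with TopHat (version 1.5.0) to rat build RN4, assembled transcripts with Cufflinks (version 0.0.6, quartile normalization), merged them for each time point and compared strains with Cuffdiff. The deposited tables, 1 for each phase, hold the authors' FPKM as 1 pooled value per group. Their columns of fold changes, test statistics and p-values between strains were not used, except the status that marks a tested gene. Quartile normalization was done within a phase, hence the centring.

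From these values, log2 ratios without pseudocount, lists and promoter motif counts were computed with Python 3.11.15 (numpy 2.4.6, pandas 2.3.3, matplotlib 3.10.9). The centring step was tested on simulated data. Depth per gene is not given in the tables, so no counting interval was computed. Genes were named in the text by rules: the 12 highest and 12 lowest ratios among named genes reaching 10 FPKM, up to 4 members per list of 3 or more (further members only to fill out a role), defining cell markers, and abundant genes. The gene lists came from general knowledge, and members and lists were chosen with earlier results of these data known. Promoters came from the RefSeq table for GRCr8, whose coordinates differ from those of RN4. Groups were taken from the strain and time point labels. Alternatives in centring, filter, pseudocount and fold were run. Identifiers with no symbol in the tables used here were not named. A few genes of the lists are counted in them but are not reported here.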

Additional observations from a re-analysis of the deposited data

Results flagged for a closer look

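In 10 genes the pooled SD level was at least 2-fold lower at 8 weeks while the pooled AN level was at least 2-fold higher, and no gene showed the reverse. The difference between strains was not tested, since each ratio rests on 1 pooled value per phase. Of the 10, 7 lie beside each other at the alpha or beta globin genes.

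Of the alpha globin region on RN4 chromosome 10, Hba-a2 (RGD:2782) had a centred log2 ratio of -1.48 in SD and 2.05 in AN, LOC360504 (RGD:1359364) of -1.48 and 2.03, and RGD:1359209, which has no symbol here, of -2.54 and 1.86. On chromosome 1, the 2 rows named Hbb (RGD:1595848 and RGD:2290038) had ratios of -1.47 and -1.47 in SD, and of 1.87 and 1.82 in AN. Their neighbours LOC100134871 (RGD:1597422) and RGD:2783 had ratios of -1.57 and -1.56 in SD, and of 1.80 and 1.81 in AN. The SD FPKM of RGD:2783 was 274 at 1 week and 93.4 at 8 weeks, and its AN FPKM was 182 and 654. Globin copies are nearly identical, so these values are not independent of each other. Those with a symbol were named from the supplementary list, whose call between strains used the SD level at 1 week.

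Mb, the oxygen carrier myoglobin of muscle, had a ratio of -1.19 in SD and 1.5 in AN. Its SD levels were 4.41 and 1.95 FPKM, and its AN levels 0.607 and 1.76 FPKM, the first of them under 1 FPKM. LOC690097 (RGD:1585167) had a ratio of -1.21 in SD and 1.83 in AN, and RGD:727951 of -1.25 and 1.93, both at low levels in at least 1 group.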

How the results depend on the processing

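Leaving out each rat in turn could not be run on pooled values. No paired analysis was possible because the tables hold 1 pooled value per group. The scaling between phases mattered little: without centring, with upper quartile centring, with equal summed FPKM and with centring on the ribosomal list, genes higher at 8 weeks numbered 289 to 318 and genes lower 293 to 314, and the scalings moved the median of all genes by at most 0.03 on the log2 scale. The ribosomal list held 2 named genes. Without rows sharing a locus, also chosen after seeing the data, 267 genes were higher and 284 lower. Filters and thresholds moved the counts. With FPKM of at least 5 in both phases, 141 genes were higher and 153 lower, 5 cell cycle genes were lower and 3 ciliary genes higher, since fewer genes were tested, and the median of the insulin-like growth factor list (3 genes, then 2) turned from -1.66 to 0.068. With a pseudocount of 1 FPKM, 186 genes were higher, and 191 where genes above 1 FPKM in either phase were admitted. At 1.5-fold, 951 genes were higher and 869 lower, and at 3-fold 63 and 115, with 4 scar matrix genes lower, 3 astrocyte genes higher and 1 ciliary gene higher. With names from RefSeq synonyms only, an alternative chosen after seeing the data, 2 cell cycle genes were lower, and 0 scar matrix genes were lower, 0 astrocyte genes higher and 0 ciliary genes higher, because 5, 0, 0 and 3 members of these lists then had a name. Of 1866 values of 175 named genes under the alternatives, 1757 moved by less than 0.1 on the log2 scale and 0 changed sign from beyond 2-fold.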

Other observations

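Gene families were also described in SD by their symbols, chosen after their values were seen, so their counts stand only as descriptions. Over all genes 2.62% were higher and 2.89% lower, and over the supplementary names, which supply most of these symbols, 7.29% and 7.46%. Among the kinesins, the motor proteins that move along microtubules, 6 of 14 named members were lower at 8 weeks, and these were Kif2c, Kif23, Kif11, Kifc1, Kif22 and Kif15, all motors of the mitotic spindle and all counted already in the cell cycle list. The axonal transport motors Kif1a, Kif5a and Kif5c had centred log2 ratios of 0.01, 0.39 and 0.24, and are members of the neuronal list. Of 5 glutathione S-transferases, which conjugate glutathione to reactive compounds, 4 were higher and 0 lower. Gsta3 was at 96.1 FPKM at 1 week and 297 FPKM at 8 weeks, and Gstm1 at 121 and 273 FPKM. Both named metallothioneins, which bind zinc and copper, were higher. Mt3 was at 1349.8 and 3260.3 FPKM, and Mt2A at 337 and 890.0 FPKM.

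Of 5 carbonic anhydrases, 1 of which (Car2) is in the myelin list, 4 were higher and 0 lower, and Car14 was at 70.0 FPKM at 1 week and 233 FPKM at 8 weeks. Abcc8 and Kcnj11, which together form an ATP-sensitive potassium channel, were at 2.56 and 2.64 FPKM at 1 week and at 7.39 and 7.32 FPKM at 8 weeks. Dao, the D-amino acid oxidase, was at 11.2 and 34.8 FPKM. Among R-spondins, Wnt ligands and secreted frizzled-related proteins, which set Wnt signalling, 4 of 6 were higher and 1 lower. Wnt16 was at 14.6 and 40.0 FPKM, Rspo2 at 1.85 and 5.83 FPKM, and the lower gene, Sfrp4, at 35.6 and 17.4 FPKM. Genes without a symbol here also had large ratios. RGD:628801 was at 74.0 and 4.65 FPKM, and RGD:1308536 at 4.95 and 53.3 FPKM.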
